A study of Mus musculus with 12 samples.

Results

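The semaphorin and plexin, ephrin and Eph, Slit and Robo, and netrin and Unc5 guidance genes were followed in primary mouse brain endothelial cells (BECs) with or without cortistatin, a neuropeptide encoded by Cort. The members were all genes of the deposited tables whose symbol belongs to one of these families (Sema3 to Sema7, Plxn, Efn, Eph, Slit, Robo, Ntn and Unc5), and no measured value entered the choice. There were 66 members among 32419 genes: 7 class 3 semaphorins, 13 class 4 to 7 semaphorins, 9 plexins, 8 ephrins, 14 Eph receptors, 3 Slits, 4 Robo receptors, 4 netrins and 4 Unc5 receptors. All 66 were listed under normoxia and normoglycemia and 64 after oxygen-glucose deprivation, where Epha6 and Sema5b were not listed.

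BECs were cultured from the brain microvessels of C57BL/6 mice (C57BL/6J in the methods of the study), wild type (Cort+/+) or lacking cortistatin (Cort-/-), and each replicate was a pool from 3 mice of a genotype. The NX/NG cultures (NM in the labels) stood 24 h at 21% O2 with 5.5 mM glucose, and the OGD-R cultures (OGD in the labels) stood 4 h at 1% O2 without glucose or serum and then 20 h in reoxygenated medium with both. Labels of all 4 groups also name an ischemic stroke model (MCAO), whereas the methods of the study describe deprivation of cultured cells only. Cort+/+ mice were 8 weeks old in the culture scheme that the sequenced BECs followed; the age of the Cort-/- mice, and whether the wild-type mice were littermates, are not given in the sources used here. In each environment 3 Cort+/+ and 2 Cort-/- libraries were analysed, 10 in all. The listed Cort-/- replicates 3 of NX/NG and 2 of OGD-R were not analysed here.

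These families steer growing axons and vessel sprouts. Semaphorins act on cells that carry plexins, often together with neuropilins, and ephrins on one cell bind Eph receptors on its neighbour, so that signals can run in both directions. Slits bind Robo receptors, and netrins bind Unc5 receptors as well as DCC and neogenin. In vessels, Efnb2 marks arterial and Ephb4 venous endothelium, Plxnd1 receives Sema3e at the sprouting front, and Robo4 and Unc5b are the Robo and Unc5 receptors typical of endothelium.

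The reads on genes recovered from the deposited values were nearly equal across libraries, at 12386048 to 12390428. The reason is not given in the sources used here, and all read numbers below are on this scale. Levels are given as RPKM, a read density per gene length and library size, as deposited, so that they can be compared between genes. Ribosomal RNA took 7.64% to 15.8% of the reads in 8 of the libraries. The exceptions were 2 OGD-R libraries, replicate 1 of Cort+/+ at 0.0775% and replicate 3 of Cort-/- at 0.0951%. The 7 endothelial markers (Cldn5, Pecam1, Tjp1, Cdh5, Tek, Flt1 and Erg) summed to 845 to 1334 RPKM, while markers of astrocytes reached at most 0.154, of oligodendrocytes 0.368, of neurons 0.956, of choroid plexus 1.20 and of microglia and macrophages 2.01 RPKM. Smooth muscle markers summed to 995 to 1777 RPKM, fibroblast and leptomeningeal markers to 88.5 to 351, pericyte markers to 7.59 to 22.9 and epithelial markers to 1.43 to 50.0. No marker of any list was at 0 in every library.

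Levels of the guidance members in BECs spread widely, with 1 or 2 leading members in most families. The 66 members together summed to 535 to 597 RPKM in a library. The mean over the 10 libraries was at least 10 RPKM for 14 members, between 1 and 10 for 24, and between 0.5 and 1 for 5. The other 23 were below 0.5 RPKM or in the NX/NG table only. For scale, the mean of Unc5c, 1.05 RPKM, was above 50.1% of the genes in both tables, and that of Sema3f, 15.1 RPKM, above 88.5%. These levels are a description and the order within it was not tested.

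**Figure D1:**
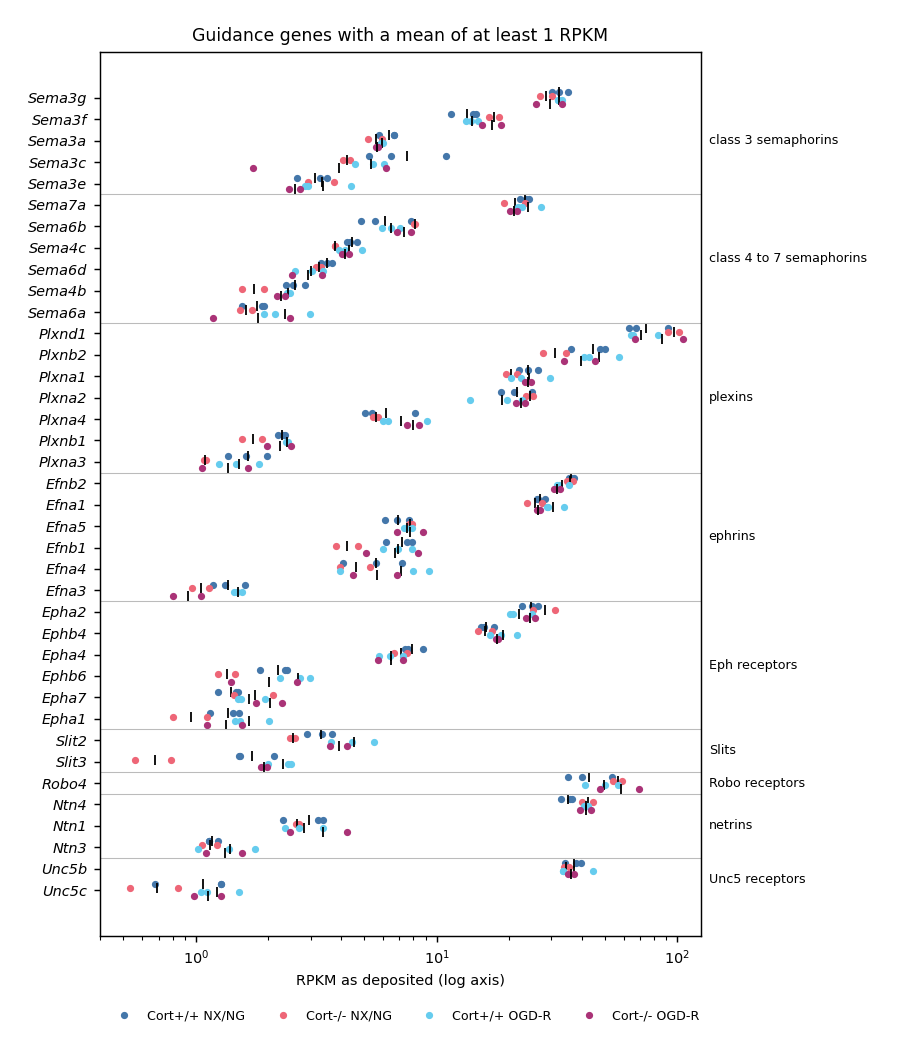
RPKM on a log axis for the 38 guidance genes at a mean of 1 RPKM or more, grouped by role; each point is 1 library, coloured by group, and the short black bar is the mean of a group. Plxnd1, Robo4, Plxnb2, Ntn4, Unc5b and Efnb2 stand at the high end, and the groups of most genes overlap.

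Guidance receptors came first in level. Plexins were the most abundant family, at 152 to 198 RPKM in sum. Plxnd1 led it, with a mean of 80.0 RPKM and a range of 63.0 to 106, above 98.3% of the genes in both tables. It was followed by Plxnb2, a receptor for class 4 semaphorins, at a mean of 41.6 RPKM (range 27.7 to 57.3). Plxna1 (23.4 RPKM) and Plxna2 (21.4 RPKM), which pair with neuropilins or bind class 6 semaphorins, came next. Plxna4 had a mean of 6.70 RPKM, Plxnb1 2.19 and Plxna3 1.44, while Plxnc1, the receptor for Sema7a, had at most 7 reads in a library and Plxnb3 at most 3.

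Robo4 made up 96.4% to 99.0% of the summed Robo level, with a mean of 50.7 RPKM (range 35.1 to 69.2). Robo1, the broadly expressed receptor for Slits, had a mean of 0.611 RPKM, and Robo2 and Robo3 had at most 28 and 16 reads in a library. Unc5b likewise made up 94.1% to 95.9% of the Unc5 level, with a mean of 36.5 RPKM (range 33.4 to 44.6). Unc5c was at a mean of 1.05 RPKM and Unc5a at 0.836, and Unc5d had at most 9 reads in a library. The 2 families thus each had 1 abundant member in every library. Eph receptors summed to 50.7 to 60.9 RPKM, led by Epha2 (mean 24.5, range 20.3 to 31.0), the main receptor of Efna1. Ephb4 followed at 17.2 RPKM (range 14.8 to 21.5) and Epha4, which binds ephrins of both classes, at 7.03 RPKM. Epha2 was the only member within 10 Mb of Cort on chromosome 4, where it lies 7.8 Mb away (141301240 to 141329384, GRCm38). Among the ligands, ephrins summed to 77.6 to 91.8 RPKM, of which Efnb2 (mean 34.3, range 30.7 to 37.3) and Efna1 (27.6, range 23.7 to 33.8) made up the larger part. Efna5 (7.44 RPKM), Efnb1 (6.43) and Efna4 (5.87) were next.

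Class 3 semaphorins, the secreted class, summed to 57.4 to 66.1 RPKM. Sema3g, known from arterial endothelium, led with a mean of 31.0 RPKM, and Sema3f had 15.1. Sema3a (5.93 RPKM), Sema3c (5.502) and Sema3e (3.14), the ligand of Plxnd1, were lower. Sema3c had the highest ratio of highest to lowest library among members above 5 RPKM, from 1.72 RPKM in Cort-/- OGD-R replicate 1 to 10.9 in Cort+/+ NX/NG replicate 1. In the membrane-bound classes Sema7a led, at a mean of 22.6 RPKM, followed by Sema6b at 6.86 and Sema4c at 4.22. Ntn4, a netrin of basement membranes, made up 88.8% to 92.4% of the netrin level, with a mean of 39.8 RPKM (range 32.9 to 44.5), against 2.93 for Ntn1, the classical axon attractant. Slit2 had a mean of 3.63 RPKM and Slit3 of 1.72, while Slit1, the Slit best known from neurons, had at most 5 reads in a library.

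At the low end, 7 members had at most 3 reads in every library: Epha6, Epha8, Epha10, Ntn5, Plxnb3, Sema4a and Sema5b. All 7 of these, and also Plxnc1 and Unc5d, were listed at 0 in at least 1 library. At this depth 3 reads are the level up to which no fold is given. The Eph receptors best known from neurons, Epha5, Epha6, Epha8 and Epha10, were all in this range or had at most 8 reads in a library.

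Promoter sequence is shown for 4 members on which the comparisons turn: the 2 expressed Slits, which were lower together in Cort-/- BECs under NX/NG, and the receptors Plxnd1 and Robo4, the most abundant members. The 250 bases before the annotated start are printed 5′ to 3′ on the strand of the gene, from RefSeq (GRCm38.p6). The GENCODE vM21 annotation, used here for gene positions, starts 3 of these genes inside the windows. It places Slit2 at 47983138, Slit3 at 35121224 and Robo4 at 37401897. By that annotation most of the Slit3 window lies inside the gene. Capitals mark GGGCGG (the GC box) and TATAAA (the TATA box), each searched on both strands.
Slit2, chr5:47982905-47983154, plus strand: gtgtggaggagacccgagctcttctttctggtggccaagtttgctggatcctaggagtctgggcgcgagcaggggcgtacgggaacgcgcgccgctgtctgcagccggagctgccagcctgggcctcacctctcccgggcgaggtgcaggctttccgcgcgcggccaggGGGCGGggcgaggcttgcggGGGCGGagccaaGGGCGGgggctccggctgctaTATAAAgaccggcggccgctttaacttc
Slit3, chr11:35121206-35121455, plus strand: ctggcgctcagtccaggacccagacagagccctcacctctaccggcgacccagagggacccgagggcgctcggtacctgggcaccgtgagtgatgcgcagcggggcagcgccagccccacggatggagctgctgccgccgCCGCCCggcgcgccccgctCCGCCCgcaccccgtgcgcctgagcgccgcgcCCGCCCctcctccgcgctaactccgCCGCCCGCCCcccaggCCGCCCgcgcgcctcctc
Plxnd1, chr6:115995006-115995255, minus strand: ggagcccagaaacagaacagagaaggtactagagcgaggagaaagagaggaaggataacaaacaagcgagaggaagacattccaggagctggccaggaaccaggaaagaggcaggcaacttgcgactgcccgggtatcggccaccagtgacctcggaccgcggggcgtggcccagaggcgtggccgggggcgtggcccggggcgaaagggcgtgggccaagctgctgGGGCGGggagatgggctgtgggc
Robo4, chr9:37401722-37401971, plus strand: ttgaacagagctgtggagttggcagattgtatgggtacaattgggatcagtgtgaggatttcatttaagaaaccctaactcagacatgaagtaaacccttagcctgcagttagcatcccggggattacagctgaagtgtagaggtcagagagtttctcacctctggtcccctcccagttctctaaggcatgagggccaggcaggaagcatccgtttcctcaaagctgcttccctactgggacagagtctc
The Slit3 promoter held 6 GC boxes, some of them overlapping, and the Slit2 promoter 3 GC boxes and 1 TATA box. Plxnd1 had 1 GC box and Robo4 neither motif. The GC content was 78.8% for Slit3, 69.6% for Slit2, 64.8% for Plxnd1 and 49.6% for Robo4. A GC box was present in 32.7% of the 32841 promoters of the RefSeq table cut to the same length, and in 42 of the 57 members found there. A TATA box was present in 12.4% of all promoters and in 2 of the 57 members. ACGTG, the core that hypoxia-inducible factors bind, was absent from all 4 windows and present in 16.6% of all promoters and in 11 of the 57. These matches describe letters only and say nothing of which factors bind.

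Cort-/- and Cort+/+ BECs were first compared under NX/NG, to ask how guidance transcripts stood without cortistatin in unstressed cells. The ligands Slit3, Slit2 and Efnb1 and the receptors Ephb6 and Plxnb2 had lower values in both Cort-/- libraries than in every Cort+/+ library, and Ntn4 and Sema3f higher ones, without passing the test across genes. Of the 42 members with a mean of at least 0.5 RPKM, 30 had lower and 12 higher values in Cort-/- BECs, where 48.5% of all genes were lower. By limma, 0 members passed a Benjamini-Hochberg FDR of 0.05, as did 0 of all 15695 genes. At an unadjusted p under 0.05 there were 11 members, 2 higher and 9 lower, where all genes gave 12.5%, 5.03% higher and 7.51% lower. The libraries of the genotypes did not overlap for 20 members, 4 higher and 16 lower, against 32.0% of all genes (15.6% higher and 16.5% lower). The median log2 fold change was -0.14 over the 42 members and 0.01 over all genes. Robo1 passed the filter through the Cort+/+ group alone.

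Slit3, a secreted ligand of Robo receptors, had 1.51, 2.11 and 1.53 RPKM in the Cort+/+ libraries and 0.561 and 0.791 in the Cort-/- libraries. These values rest on 107 to 168 reads in Cort+/+ and on 42 and 61 reads in Cort-/-. The log2 fold change was -1.23 (SE 0.24), with FDR = 0.236. Slit2, of the same family, had 3.34, 3.68 and 2.90 RPKM in Cort+/+ and 2.58 and 2.47 in Cort-/-, a log2 fold change of -0.37 (SE 0.12; FDR = 0.355). Both Slits thus lay lower in Cort-/- without overlap, Slit3 by the larger amount. The Robo receptors tested went different ways in value. Robo4, the only one above 1 RPKM, had 40.2, 35.1 and 53.6 RPKM in Cort+/+ and 53.9 and 59.0 in Cort-/- (log2 fold change 0.42, SE 0.19; FDR = 0.429). Robo1 was lower in Cort-/-, like the Slits, at 0.771, 1.03 and 0.420 RPKM in Cort+/+ and 0.378 and 0.396 in Cort-/-. Its log2 fold change was -0.72 (SE 0.43, FDR = 0.529), and it passed the filter through Cort+/+ alone.

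In the ephrin system, Efnb1, a transmembrane ligand of EphB receptors, had 7.87, 7.56 and 6.15 RPKM in Cort+/+ and 4.71 and 3.81 in Cort-/-. Its log2 fold change was -0.74 (SE 0.15; FDR = 0.240). Ephb6, an Eph receptor without kinase activity, had 2.33, 2.38 and 1.84 RPKM in Cort+/+ and 1.46 and 1.23 in Cort-/- (log2 fold change -0.66, SE 0.17; FDR = 0.293). The arteriovenous pair stood apart from them: Efnb2 differed by -0.02 (SE 0.06) and Ephb4 by -0.02 (SE 0.09) on the log2 scale, with overlapping libraries. Efna1 (-0.07, SE 0.08) and its receptor Epha2 (0.18, SE 0.11) overlapped too.

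In the semaphorin system, Plxnb2 had 47.7, 49.9 and 36.0 RPKM in Cort+/+ and 34.5 and 27.7 in Cort-/- (log2 fold change -0.51, SE 0.17; FDR = 0.358). Plxnb1, its close relative, differed by -0.40 (SE 0.13; FDR = 0.343) and Plxna3 by -0.54 (SE 0.19; FDR = 0.369). The class 4 ligands Sema4b (-0.55, SE 0.14; FDR = 0.298) and Sema4c (-0.22, SE 0.08; FDR = 0.364) also had an unadjusted p under 0.05; the other class 4 members and Plxnb3 were below the filter. Sema3c, a secreted ligand, had 10.9, 6.45 and 5.25 RPKM in Cort+/+ and 4.09 and 4.37 in Cort-/- (log2 fold change -0.75, SE 0.31; FDR = 0.415). Plxnd1 had 67.3, 63.0 and 91.8 RPKM in Cort+/+ and 91.5 and 102 in Cort-/-, and the groups overlapped (log2 fold change 0.40, SE 0.18; FDR = 0.423). Its ligand Sema3e differed by 0.09 (SE 0.17), Sema3a by -0.18 (SE 0.11) and Sema3g by -0.19 (SE 0.09).

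Higher values in Cort-/- were fewer. Sema3f, a ligand of Nrp2 complexes, had 11.5, 14.5 and 14.1 RPKM in Cort+/+ and 18.1 and 16.5 in Cort-/- (log2 fold change 0.37, SE 0.12; FDR = 0.346). Ntn4 had 32.9, 36.3 and 35.8 RPKM in Cort+/+ and 40.2 and 44.5 in Cort-/- (0.27, SE 0.08; FDR = 0.314). Both had no overlap between the genotypes. Ntn1 differed by -0.14 (SE 0.18) and Unc5b by -0.11 (SE 0.08). These counts move with single libraries. With a Cort-/- library left out, its group holds 1 library, which is assumed to vary like the other libraries in the fit. Member counts at p under 0.05 from such fits are not given. The 11 members at p under 0.05 by limma became 7 without Cort+/+ replicate 2 and 18 without Cort+/+ replicate 3. All genes went from 1968 to 1473 and 2663 in these fits. By limma-voom on the recovered reads there were 18 members, and 2359 of all genes. At the FDR threshold limma-voom gave 0 members.

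**Figure D2:**
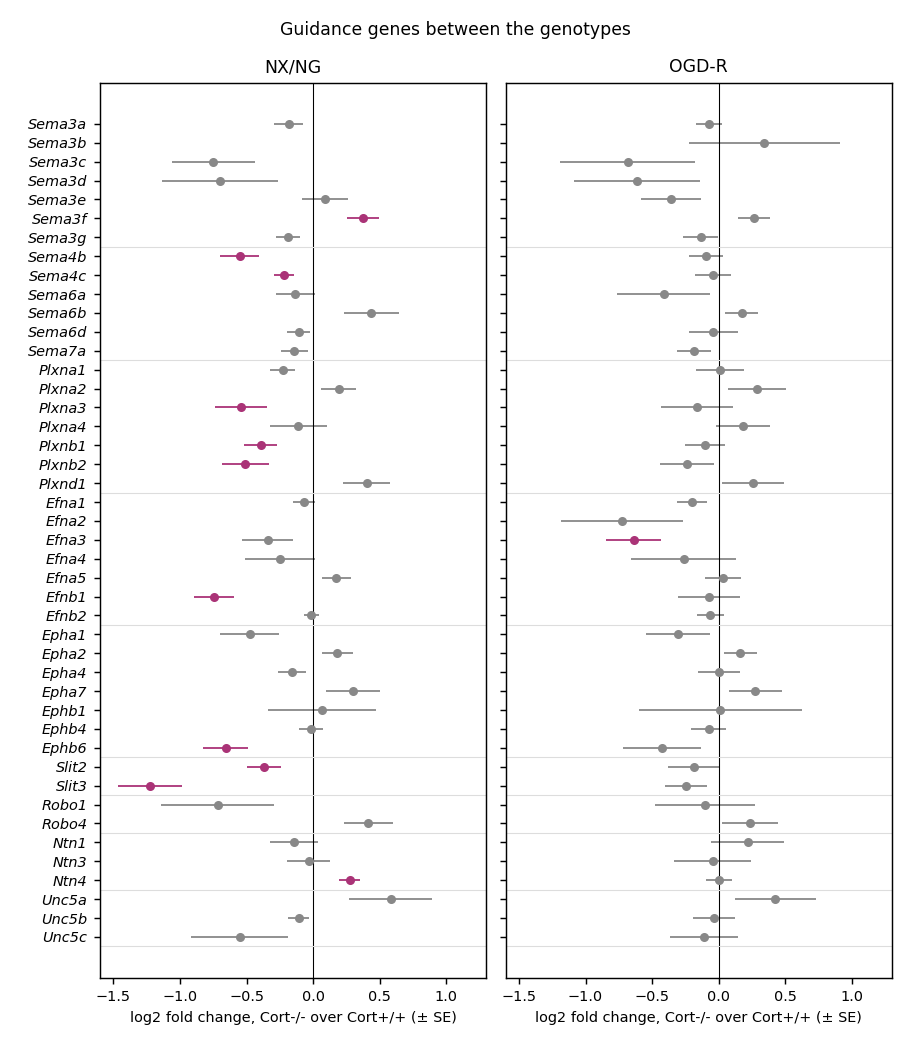
Log2 fold change of Cort-/- over Cort+/+ BECs (points) with its standard error (bars) for the 44 members tested in at least 1 environment, ordered by role; purple points have an unadjusted limma p under 0.05 and no point passes the FDR threshold. Under NX/NG Slit3 lies farthest to the left at -1.23, and under OGD-R only Efna3 is purple, at -0.64.

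Markers of some other cell types moved with the genotype under NX/NG. The 8 fibroblast and leptomeningeal markers were Col1a1, Col1a2, Col3a1, Dcn, Lum, Pdgfra, Foxc2 and Ogn. They summed to 284, 289 and 199 RPKM in Cort+/+ and to 126 and 88.5 in Cort-/-. All 6 that were tested had lower values in Cort-/-, 4 of them at p under 0.05 by limma. Pdgfra, below the filter, went the other way, at 0.485 and 0.706 RPKM in Cort-/- against 0.366, 0.319 and 0.320 in Cort+/+. The 6 pericyte markers summed to 17.9, 21.4 and 18.7 RPKM in Cort+/+ and to 7.59 and 10.2 in Cort-/-, and all 3 tested were lower at p under 0.05, Pdgfrb by -1.001 (SE 0.17) and Cspg4 by -1.91 (SE 0.28) on the log2 scale. The 4 smooth muscle markers had sums that overlapped, at 1739, 1777 and 1449 RPKM in Cort+/+ and 1556 and 1299 in Cort-/-. Of them 1 was higher and 3 lower, 0 at p under 0.05 by limma. Of the 7 endothelial markers 6 had higher values in Cort-/-, 1 of them at p under 0.05 by limma. In bulk RNA, fewer cells of a type and less RNA per cell cannot be told apart.

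The order of the NX/NG libraries was compared with these marker sums for chosen members, and some of them matched. Plxnb2 and Slit2 ranked them exactly as the fibroblast and leptomeningeal sum (Cort+/+ replicates 2, 1 and 3, then Cort-/- replicates 1 and 2), and Slit3 ranked them as the pericyte sum. Plxnd1 ranked them as the endothelial sum, with Cort+/+ replicate 3 between the Cort-/- libraries. Robo4, Sema6b, Efnb1 and Sema3c, also compared, ranked them as none of these sums. The share of all genes with such an order was not counted. A member and a sum that are both apart by genotype share part of their order from the start, so no conclusion is drawn from the matches. The part of these markers in the differences of the members was not tested.

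**Figure D3:**
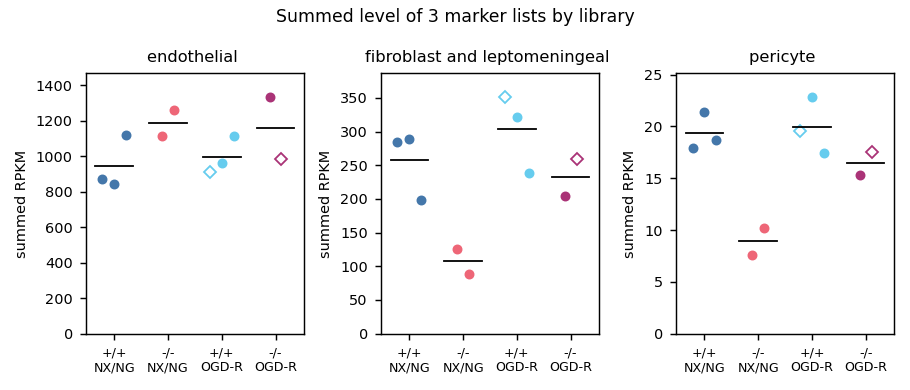
Summed RPKM of the endothelial, the fibroblast and leptomeningeal, and the pericyte marker lists; each point is 1 library, the line is the mean of a group, and open diamonds are the OGD-R libraries low in ribosomal RNA. Under NX/NG the fibroblast and pericyte sums of the Cort-/- libraries lie below every Cort+/+ library (126 and 88.5 against 199 to 289, and 7.59 and 10.2 against 17.9 to 21.4).

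A list of 52 guidance partners (co-receptors and signalling proteins such as neuropilins, neogenin and collapsin response mediators) gave 41 tested genes under NX/NG, 20 higher and 21 lower in Cort-/-, with 0 at the FDR threshold by limma. At p under 0.05, 1 was higher (Myo10, a motor of filopodia) and 10 were lower, where all genes gave 5.03% higher and 7.51% lower. Nrp1, the neuropilin that serves Sema3a and VEGF, had 16.1, 17.8 and 15.3 RPKM in Cort+/+ and 12.2 and 12.1 in Cort-/- (log2 fold change -0.42, SE 0.08; FDR = 0.223). Neo1, the netrin receptor neogenin, differed by -0.83 (SE 0.22; FDR = 0.297), whereas Nrp2, which serves Sema3f, differed by 0.17 (SE 0.10; FDR = 0.540). Dcc, the neuronal netrin receptor, was at most 0.0173 RPKM in every library.

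After OGD-R the same comparison asked how the genotypes stood in injured cells. Efna3, a glycolipid-anchored ephrin, was the only member at an unadjusted p under 0.05, and Slit3, Efna1 and Sema3f were among the members without overlap. Of 44 members tested, 16 had higher and 28 lower values in Cort-/- BECs, where 52.3% of all genes were lower, and 0 of them, like 0 of all 15785 genes, passed the FDR threshold by limma. The 1 member at p under 0.05, a lower one, stands against 3.59% of all genes (1.4% higher and 2.19% lower). The genotypes did not overlap for 8 members, 1 higher and 7 lower, against 16.3% of all genes (7.93% higher and 8.39% lower). The median log2 fold change was -0.07 over the members and -0.01 over all genes. Efna2 and Sema3b passed the filter through 1 group only.

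Efna3 had 1.56, 1.48 and 1.44 RPKM in Cort+/+ and 0.806 and 1.05 in Cort-/- (log2 fold change -0.64, SE 0.21; FDR = 0.999), from 23 to 52 reads. Slit3 had 2.48, 2.42 and 2.00 RPKM in Cort+/+ and 1.97 and 1.87 in Cort-/- (log2 fold change -0.24, SE 0.16; FDR = 0.999). Efna1 had 28.7, 33.8 and 29.0 RPKM in Cort+/+ and 26.8 and 26.1 in Cort-/- (-0.20, SE 0.11; FDR = 0.999). All 3 ligands had lower values in both Cort-/- libraries. Sema3f was the member without overlap that had higher values in Cort-/-, at 18.4 and 15.4 RPKM against 13.8, 13.3 and 14.9 (0.27, SE 0.12; FDR = 0.999). Sema3e had 4.41, 2.93 and 2.83 RPKM in Cort+/+ and 2.44 and 2.70 in Cort-/- (-0.36, SE 0.22; FDR = 0.999).

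Efnb1 and Ntn4, apart under NX/NG, overlapped here. Efnb1 had 7.89, 6.89 and 5.99 RPKM in Cort+/+ and 5.11 and 8.34 in Cort-/-, and its log2 fold change was -0.07 (SE 0.24). Ntn4 lay between 39.5 and 43.9 RPKM in all libraries of this environment, with a log2 fold change of 0.00 (SE 0.10). Sema3c had 5.43, 4.58 and 6.05 RPKM in Cort+/+ and 1.72 and 6.16 in Cort-/-, so its log2 fold change of -0.68 (SE 0.51) rests on Cort-/- replicate 1 and was 0.21 without that library. Efna2, near the filter, had 0.478, 0.676 and 0.785 RPKM in Cort+/+ and 0.240 and 0.481 in Cort-/- (-0.73, SE 0.46). The arteriovenous pair Efnb2 (-0.06, SE 0.10) and Ephb4 (-0.08, SE 0.13) overlapped as well. So did the receptors Plxnd1 (0.26, SE 0.23) and Robo4 (0.23, SE 0.21).

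The count of 1 member at p under 0.05 by limma became 0 without Cort+/+ replicate 2, where all genes went from 567 to 411. With ribosomal RNA content as a term it was 4, where all genes gave 878. By limma-voom it was 1, where all genes gave 535. Each of these fits had 0 members at the FDR threshold. The fibroblast and leptomeningeal sums overlapped in this environment, at 351, 321 and 239 RPKM in Cort+/+ and 204 and 259 in Cort-/-. So did the pericyte sums, at 19.6, 22.9 and 17.4 in Cort+/+ and 15.3 and 17.6 in Cort-/-. Of the 6 fibroblast and leptomeningeal markers tested, 5 had lower values in Cort-/-, 1 of them at p under 0.05. The sums of the 5 epithelial markers did not overlap, at 7.46, 3.27 and 1.43 RPKM in Cort+/+ and 37.6 and 8.83 in Cort-/-. Not every single marker was apart: Krt8 had 11.9 and 0.0749 RPKM in Cort-/- and 0.260, 0.138 and 0.128 in Cort+/+. All 3 that were tested had a positive log2 fold change, but Cdh1 and Krt8 passed the filter through the Cort-/- group alone. Krt18 was at p under 0.05 by limma (log2 fold change 2.10, SE 0.73). Under NX/NG the same sum was 50.0 RPKM in Cort+/+ replicate 2 and 3.88 to 13.7 in the other libraries. The part of the epithelial markers in the differences of the members was not tested.

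**Figure D4:**
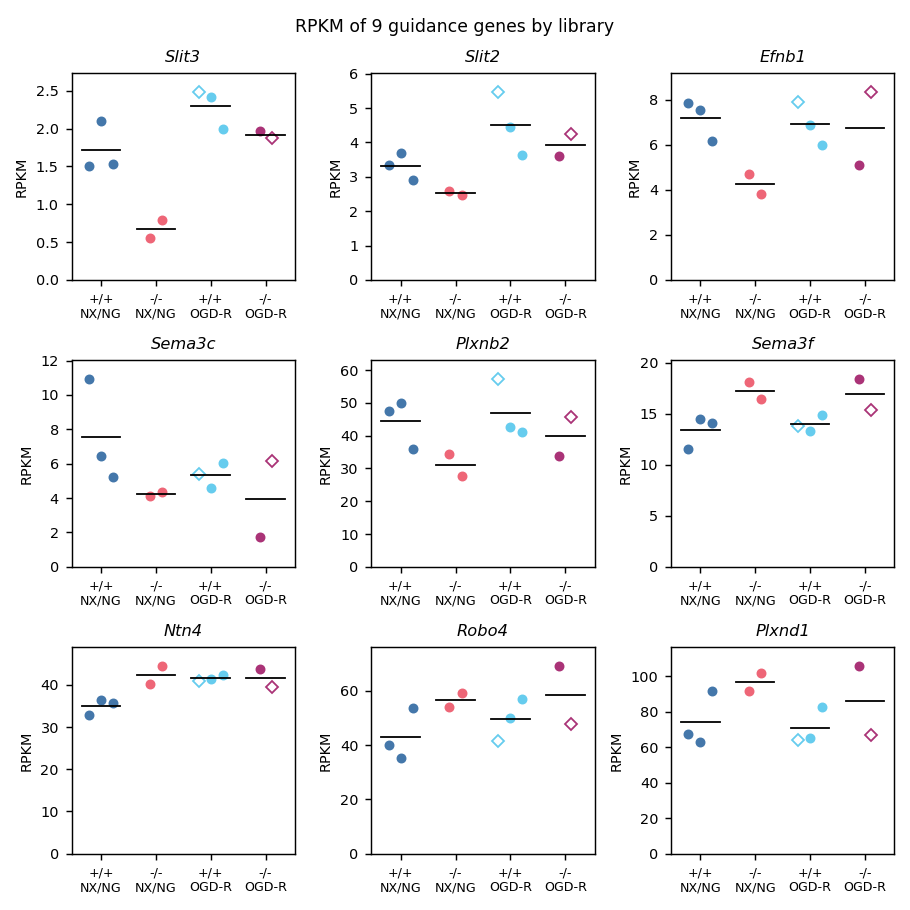
RPKM as deposited of 9 guidance genes; each point is 1 library, the line is the mean of a group, and open diamonds are the OGD-R libraries low in ribosomal RNA. Slit3 lies at 0.561 and 0.791 RPKM in the Cort-/- NX/NG libraries and at 1.51 or above in the other 8.

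Each genotype holds 1 of the OGD-R libraries low in ribosomal RNA, so the split can be read within both. In Cort-/- it sets 1 library against 1, and these also differ in marker sums. Replicate 1 of Cort-/- had 37.6 RPKM of epithelial and 1334 of endothelial markers, and replicate 3 had 8.83 and 985. In Cort+/+ replicate 1 and Cort-/- replicate 3, 17 of the 44 members tested were higher than in the other libraries of their genotype, against 21.7% of all genes, among them Plxnb2, Efnb1, Slit2, Ephb6, Plxna4 and Unc5b. Plxnb2 had 57.3 RPKM in the former and 42.8 and 41.1 in the other Cort+/+ libraries, and 45.7 in the latter against 33.9. Lower in both were 10 members, against 21.7% of all genes, among them Plxnd1, Robo4, Ntn4 and Sema6b. Plxnd1 had 64.2 RPKM against 65.2 and 82.7 in Cort+/+, and 66.6 against 106 in Cort-/-. The endothelial marker sum ranked the OGD-R libraries as Plxnd1 and Sema6b did, and the fibroblast and leptomeningeal sum ranked them as Slit2 did. Robo4, Plxnb2, Slit3, Efnb1 and Sema3c, also compared, ranked them as neither sum. No compared member ranked them as the pericyte sum, so the match of Slit3 with that sum under NX/NG did not recur. How many of all genes had a matching order was not counted here either. The part of ribosomal RNA content in these values was not tested.

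OGD-R was then compared with NX/NG within each genotype, on reads of both tables scaled together, and the values given for it are RPKM on that common scale. In Cort+/+ BECs the arterial ephrin Efnb2 and its receptor Epha4 had lower, and Ntn4 higher, values after OGD-R. Of 44 members tested 21 were higher and 23 lower, where 49.3% of all genes were lower, and 0 passed the FDR threshold by limma, as did 0 of 15759 genes. At p under 0.05 there were 4 members, 1 higher and 3 lower, against 6.5% of all genes (3.95% higher and 2.55% lower). The environments did not overlap for 7 members, 2 higher and 5 lower, against 12.4% of all genes (7.15% higher and 5.29% lower). The median log2 fold change was -0.01 over the members and 0.00 over all genes. Efna2 and Ephb3 passed the filter through 1 group only.

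Efnb2 had 38.2, 37.0 and 36.3 RPKM under NX/NG and 34.5, 31.4 and 30.7 after OGD-R (log2 fold change -0.21, SE 0.07; FDR = 0.748). Epha4 had 7.59, 8.97 and 7.83 RPKM and then 7.05, 5.61 and 6.23 (-0.37, SE 0.11; FDR = 0.748). Sema6d, a transmembrane ligand of A-type plexins, had 3.58, 3.39 and 3.77 RPKM and then 2.95, 2.53 and 3.28 (-0.29, SE 0.12; FDR = 0.761). Ntn4 had 33.7, 37.2 and 36.7 RPKM and then 39.9, 40.3 and 41.4 (0.18, SE 0.06; FDR = 0.755). In none of these 4 did the environments overlap. Epha2 differed by -0.24 (SE 0.10; FDR = 0.776), with overlap, and Slit2 by 0.36 (SE 0.17; FDR = 0.803). The widest values, 0.56 for Efna2 (SE 0.32), -0.50 for Sema3c (SE 0.27) and -0.41 for Ephb1 (SE 0.44), had large errors. The count of 4 became 2 without NX/NG replicate 1 and 1 without NX/NG replicate 2 or without OGD-R replicate 2. All genes went from 1025 to 698, 737 and 795 in these fits. By limma-voom there were 6 members, and 973 of all genes.

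In Cort-/- BECs, both expressed Slits and Plxna4 had higher values after OGD-R and Efnb2 lower. Of 42 members 21 were higher and 21 lower, where 51.7% of all genes were lower, and limma gave 0 at the FDR threshold, as over 15676 genes. At p under 0.05 there were 4 members, 3 higher and 1 lower, against 3.87% of all genes (2.09% higher and 1.79% lower). The environments did not overlap for 13 members, 8 higher and 5 lower, against 34.3% of all genes (16.2% higher and 18.1% lower). The medians over the members and over all genes were both -0.01 on the log2 scale. Sema3b passed the filter through 1 group only.

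Slit3 had 0.576 and 0.815 RPKM under NX/NG and 1.92 and 1.82 after OGD-R, a log2 fold change of 1.32 (SE 0.26; FDR = 0.938). Slit2 had 2.66 and 2.54 RPKM and then 3.51 and 4.12 (0.53, SE 0.14; FDR = 0.938). Plxna4, a receptor of Sema3a and class 6 semaphorins, had 5.89 and 5.60 RPKM and then 7.33 and 8.20 (0.43, SE 0.11; FDR = 0.938). In all 3 the Cort-/- libraries of the environments did not overlap. Efnb2 had 35.9 and 38.0 RPKM and then 31.6 and 29.9 (-0.26, SE 0.10; FDR = 0.938), so that on this common scale every OGD-R library of either genotype lay below every NX/NG library. Sema3e differed by -0.43 (SE 0.17; FDR = 0.938), Unc5c by 0.59 (SE 0.34) and Sema3b by 0.74 (SE 0.70), the last from 1 high library.

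The same transition in Cort-/- carried markers of other cells. Of 7 fibroblast and leptomeningeal markers tested, 5 were higher after OGD-R, 3 of them at p under 0.05, and Col1a1 differed by 1.13 (SE 0.22). Of 3 pericyte markers 2 were higher at p under 0.05, Cspg4 by 1.93 (SE 0.36) and Pdgfrb by 0.70 (SE 0.22). In Cort+/+ BECs 0 of the fibroblast, leptomeningeal and pericyte markers were at p under 0.05 by limma. The 4 smooth muscle markers (Acta2, Tagln, Myh11 and Cnn1) had lower values after OGD-R in both genotypes, with a median log2 fold change of -0.51 in Cort+/+ and -0.53 in Cort-/-. At p under 0.05 were Myh11 (-1.05, SE 0.27) and Cnn1 (-0.80, SE 0.21) in Cort+/+, and Myh11 (-1.26, SE 0.29) in Cort-/-. Their part in the lower values of Efnb2, Epha4 and Sema6d was not tested. The part of the fibroblast and pericyte markers in the values of the Slits was not tested. By limma-voom the count of 4 members was 6, where all genes went from 607 to 644.

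**Figure D5:**
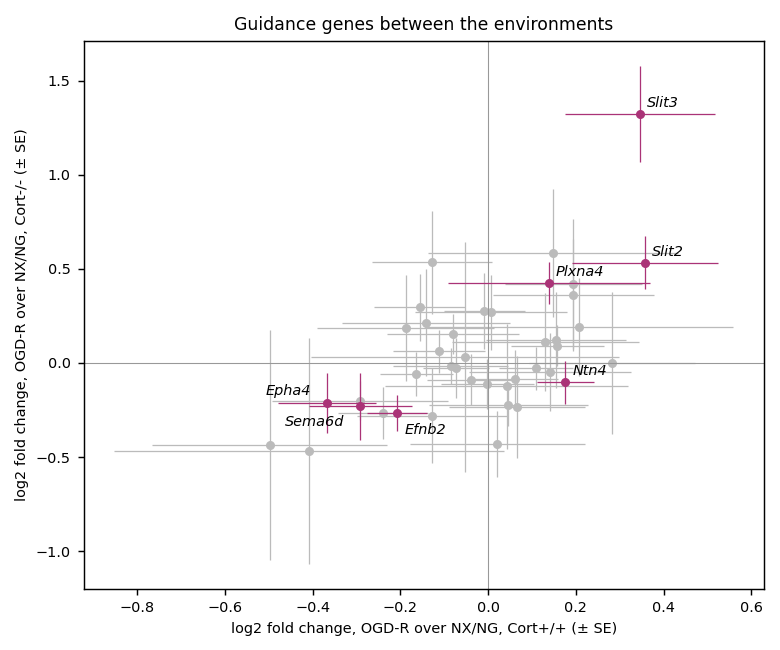
Log2 fold change of OGD-R over NX/NG in Cort+/+ (horizontal axis) and in Cort-/- BECs (vertical axis) with standard errors, for the 41 members tested in both; purple and named are members with an unadjusted limma p under 0.05 in either genotype. Slit3 stands at 0.35 and 1.32, and Efnb2 is below 0 on both axes at -0.21 and -0.26.

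The difference between the genotypes in this transition was tested as an interaction over all 10 libraries. Slit3 led these values, and its value after OGD-R relative to NX/NG was higher in Cort-/- than in Cort+/+ by 0.98 on the log2 scale (SE 0.28; FDR = 1.00). By limma 0 of 43 members and 0 of 15714 genes passed the FDR threshold, and 3 members were at p under 0.05, 2 higher and 1 lower, against 1.88% of all genes (1.06% higher and 0.821% lower). Of the 43 members 19 were below 0, where 53.2% of all genes were. Sema4b, a class 4 ligand, had an interaction of 0.45 (SE 0.18; FDR = 1.00) and Ntn4 one of -0.28 (SE 0.11; FDR = 1.00). Efnb1 had 0.66 (SE 0.31; FDR = 1.00), Plxnb1 0.29 (SE 0.18) and Sema3b 0.69 (SE 0.72), while for Slit2 it was 0.18 (SE 0.24; FDR = 1.00). The count of 3 became 1 without Cort+/+ NX/NG replicate 1, Cort+/+ OGD-R replicate 2 or Cort+/+ OGD-R replicate 3. All genes went from 296 to 242, 273 and 280 in these fits. By limma-voom there were 4 members, and 239 of all genes. For 2 of the pericyte and 2 of the fibroblast and leptomeningeal markers the interaction was also higher at p under 0.05, and the part of those cells in the Slit3 value was not tested.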

How the data were processed

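The authors deposited RPKM per gene and library in 1 table for each environment, scaled separately; the aligner, the genome build and the strand setting of the counting are not given in the sources used here, so reads of overlapping antisense genes cannot be told apart. The deposited comparison columns (fold changes, p-values and categories) were not used. Multiplied by gene length, at least 99.996% of the values above 0 in a library came within 0.05 of a whole number of reads, which were recovered in this way. Each comparison was fitted with limma 3.58.1 (R 4.3.3; trended empirical Bayes) on log2(RPKM + 0.1), a scale that understates changes of low genes, over genes averaging 0.5 RPKM or more in the libraries compared, with Benjamini-Hochberg adjustment over all of them and a threshold of 0.05. Environments were compared, and the interaction fitted, on the 27321 genes of both tables with 1 joint TMM scaling (trimmed mean of M values). Groups follow the sample titles. The fit was tested on simulated data.

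Members and lists were chosen with earlier results of these data known. The text names the 5 members of lowest p and the 3 of largest change in a comparison, the 12 most abundant, those within 10 Mb of Cort, known ligand and receptor pairs, and those at 0 or in 1 table; others, named after their values were seen, complete a family. All 66 symbols were placed with GENCODE vM21 (GRCm38), which may not be the build of the tables, and 57 matched RefSeq promoters. Alternatives were limma-voom on the recovered reads, other pseudocounts, filters and scalings, all groups in one fit, a term for ribosomal RNA, a replicate block, and each library left out, for the interaction added after the data were seen.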

Additional observations from a re-analysis of the deposited data

Results flagged for a closer look

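The OGD-R over NX/NG change differed in value between the genotypes at an unadjusted limma p under 0.05 for 3 members, where all genes gave 1.88%. None passed the FDR threshold. The interaction, as the OGD-R over NX/NG change of Cort-/- minus that of Cort+/+ on the log2 scale, was 0.98 for Slit3 (SE 0.28), with a change of 1.32 in Cort-/- and 0.35 in Cort+/+. It was 0.45 for Sema4b (SE 0.18), which changed in value by 0.30 in Cort-/- and -0.16 in Cort+/+. It was -0.28 for Ntn4 (SE 0.11), at -0.10 in Cort-/- and 0.18 in Cort+/+. Over the 10 libraries left out in turn, the interaction ranged from 0.76 to 1.20 for Slit3, from 0.30 to 0.60 for Sema4b and from -0.36 to -0.20 for Ntn4. For Slit3, the interaction, the change in Cort-/- and the genotype difference under NX/NG all use the same low Cort-/- NX/NG libraries. They are not separate results.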

How the results depend on the processing

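With 2 or 3 libraries a group, limma gave 0 members at the FDR threshold in every comparison and every alternative. Of the 39 fold changes named by rule, 38 kept their sign in every alternative; the exception was Sema3c under OGD-R, -0.68 over all libraries, 0.21 without Cort-/- replicate 1 and -1.57 to 0.21 over all libraries left out in turn. The number of members at p under 0.05 moved more. Between the genotypes under NX/NG it was 11, 18 by limma-voom, and 7 to 18 with 1 Cort+/+ library left out. All genes gave 1968, 2359 and 1181 to 2663 in these fits. Under OGD-R it was 1, 4 with ribosomal RNA content as a term, and 0 without Cort+/+ replicate 2, where all genes gave 567, 878 and 411. For OGD-R over NX/NG it was 4 in Cort+/+, 2 after quantile normalization and 1 to 5 with 1 library left out. All genes gave 1025, 1031 and 698 to 1372 in these fits. In Cort-/- it was 4, where all genes gave 607. For the interaction it was 3, and 1 without Cort+/+ NX/NG replicate 1, where all genes gave 296 and 242. The causes were not tested.

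Same-numbered libraries did not deviate together (Pearson r across genes of deviations from the group means -0.03 and -0.04 under NX/NG, -0.40 and -0.27 under OGD-R, and -0.04, -0.05 and 0.13 between the environments in Cort+/+). The numbers were not taken as pairs. With 2 libraries in a Cort-/- group their deviations mirror each other, so this check cannot exclude pairing between the genotypes. Under OGD-R the libraries low in ribosomal RNA also carry different numbers in the genotypes. With the replicate number as a block the count was 11 under NX/NG, 0 under OGD-R, 6 for OGD-R over NX/NG in Cort+/+ and 1 for the interaction. No paired analysis was possible for OGD-R over NX/NG in Cort-/- because these groups share only 1 number.

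Over all genes, limma called 0 in each comparison. Under NX/NG, limma-voom called 54 and the fit of all groups 3; under OGD-R, the fit of all groups called 5, a pseudocount of 1 gave 2 and limma-voom 1. In Cort+/+ between the environments, fitting without a filter called 9. In Cort-/- the fit of all groups called 1, and for the interaction fitting without a filter called 3 and leaving out Cort-/- OGD-R replicate 1 called 2.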

Other observations

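Vessel identity lists outside the guidance families were compared as a description. All 8 tip cell genes (Apln, Esm1, Kdr, Cxcr4, Pgf, Angpt2, Pdgfb and Dll4), which mark the leading cells of sprouts, had higher values in Cort-/- than in Cort+/+ BECs under NX/NG, with a median log2 fold change of 0.48 against 0.01 over all genes. By limma 1 of them, Pdgfb, was at p under 0.05 (0.45, SE 0.14, FDR = 0.337), where 12.5% of all genes were, and 0 passed the FDR threshold. The genotypes did not overlap for 2 of the 8, against 32.0% of all genes. Apln, for example, had 614 and 705 RPKM in Cort-/- and 366, 289 and 647 in Cort+/+. Under OGD-R all 8 were again higher in value, with a median of 0.18 against -0.01 over all genes. By limma 0 of them were at p under 0.05, where 3.59% of all genes were. The genotypes did not overlap for 1 of the 8, against 16.3% of all genes. The Cort-/- libraries stood apart from each other: Apln, Cxcr4, Pgf, Angpt2, Pdgfb and Dll4 were higher in replicate 1 than in replicate 3, Esm1 and Kdr lower. Apln, for example, had 742 and 417 RPKM in these libraries and 284, 413 and 596 in Cort+/+. The endothelial marker sum was also higher in mean in Cort-/- in both environments, and its part in these values was not tested.

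Among 9 arterial genes tested under NX/NG, 4 had higher and 5 lower values in Cort-/- BECs, and 2 were at p under 0.05, where 12.5% of all genes were at that level and 48.5% were lower: Sox17, an arterial transcription factor, at 0.52 (SE 0.18) and Nrp1, which is also a guidance partner, at -0.42 (SE 0.08). Among 5 venous genes 3 were higher and 2 lower, and 3 were at p under 0.05. These were Flt4 (0.34, SE 0.08), Emcn (0.36, SE 0.12) and Nr2f2, the regulator of venous identity, at -0.86 (SE 0.15). By limma 0 of these passed the FDR threshold.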
